A study of Canis lupus familiaris with 29 samples.

Results

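Fibroblast growth factor (FGF) receptors, a receptor without kinase activity, a co-receptor and FGF ligands were described in canine pheochromocytomas and paragangliomas (PPGLs) and normal adrenal medullas (NAMs). The 10 genes sought were the receptors FGFR1, FGFR2, FGFR3, FGFR4 and FGFRL1, the co-receptor KLB, and the ligands FGF1, FGF2, FGF7 and FGF9. They were taken by gene name from the deposited count table, and 9 of them were found among its 30951 genes. FGF2 was not found by name and has no value here. RNA was sequenced from 29 canine samples, of which 10 were NAMs, 7 belonged to PPGL group 1 and 12 to PPGL group 2. PPGLs are tumors of cells that make catecholamines, and the labels do not separate pheochromocytomas, which lie within the adrenal gland, from paragangliomas, which lie elsewhere. NAMs were medullas cut out of the adrenals of healthy research dogs and snap-frozen, whereas PPGLs were pieces of spontaneous tumors of client-owned patients from several clinics, taken at surgery or after euthanasia and frozen directly or after storage in a stabilizing solution. Origin and preservation therefore cannot be told apart from tissue, and neither ages nor breeds are given in the labels. PPGL groups 1 and 2 were drawn by the authors from the principal components of these same samples, so a p-value between them describes that split and does not test it.

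FGFs are secreted ligands that bind receptor tyrosine kinases together with heparan sulfate on the cell surface, and the dimerized receptor signals through the adaptor FRS2 to enzymes inside the cell. FGF signaling guides growth and epithelial-mesenchymal exchange in many organs, and in mice FGFR2 takes part in the growth of the adrenal cortex. FGFRL1 binds FGFs but lacks the kinase domain, and KLB lets hormone-like FGFs act on their receptors.

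Each sample had between 18208718 and 35918182 counts on genes, with a median of 25494016.5 in NAMs, 20825468 in PPGL group 1 and 22051743 in PPGL group 2. A level of 3 counts, taken as the lowest that this depth can show, corresponded to 0.0835 to 0.156 counts per 1e6 (CPM) among NAMs and to 0.094 to 0.165 CPM among tumors. This floor describes counting error only. Levels are given as CPM normalized by the trimmed mean of M-values (TMM), and levels of different genes are compared only per kb of exon. The counts are summed over all transcripts of a gene, so receptor isoforms such as FGFR2 IIIb and IIIc were not distinguished.

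The labelled tissues were checked against marker genes. The 13 chromaffin cell markers found summed to a median of 32431 CPM in NAMs (17970 to 97256), 34687 CPM in PPGL group 1 (8790 to 119302) and 49756 CPM in PPGL group 2 (21025 to 103415), with CHGB as the most abundant per kb in all 3 groups. The lowest of these sums was in PPGL group 1 replicate 7. The 9 adrenal cortex markers found summed to a median of 33161 CPM in NAMs, 202 CPM in PPGL group 1 and 3356 CPM in PPGL group 2. Markers of the steroid-producing cortex were thus abundant in every sample labelled as medulla, where the lowest sum was 12630 CPM. In bulk tissue, fewer cells of a type and less RNA per cell cannot be told apart.

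FGFR2 and FGF9 were lower and FGF7 was higher in PPGLs than in NAMs, and the FGF7 call rested on 1 tumor. Of the 8 members tested in this comparison (19 PPGLs, 10 NAMs), 2 were called lower at an FDR-adjusted p below 0.05, beside 15.2% of all 14766 genes tested, and 1 was called higher, beside 22.3%. With a log2 fold change (FC) under -3 as well, FGFR2 was the 1 member called lower, beside 0.792% of all genes. The median log2 FC of the 8 members was -0.71, beside 0.13 over all genes tested. FGFR4 did not pass the low-count filter in any of the 4 comparisons.

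In PPGL group 1 against NAMs, FGFR2, FGF9, FGFRL1 and FGFR3 were called lower, which is 4 of 8 members tested beside 14.7% of all 14587 genes. No member was called higher, beside 21.1% of all genes. By edgeR, 0 members were higher at an unadjusted p below 0.05, and DESeq2 and the Mann-Whitney U-test also called 0. In PPGL group 2 against NAMs, FGFR2 and FGF9 were called lower, 2 of 8 members beside 18% of 14428 genes, and FGF7 was called higher, 1 of 8 beside 22.9%. In PPGL group 1 against PPGL group 2, at an FDR-adjusted p below 0.1, FGFR2 alone was called lower, 1 of 8 members beside 2.95% of 14666 genes, and with a log2 FC under -3 it was 1 member beside 1.11%. No member was called higher, beside 3.97% of all genes, and 0 were higher at an unadjusted p below 0.05 by edgeR or called by DESeq2 or the Mann-Whitney U-test. The members' median log2 FC was -0.72 in PPGL group 1 and -0.74 in PPGL group 2 against NAMs, beside 0.13 and 0.09 over all genes, and -1.10 in group 1 against group 2, beside 0.04. The 3 comparisons with NAMs share the same 10 NAMs and are set side by side without a test of their overlap.

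**Figure D1:**
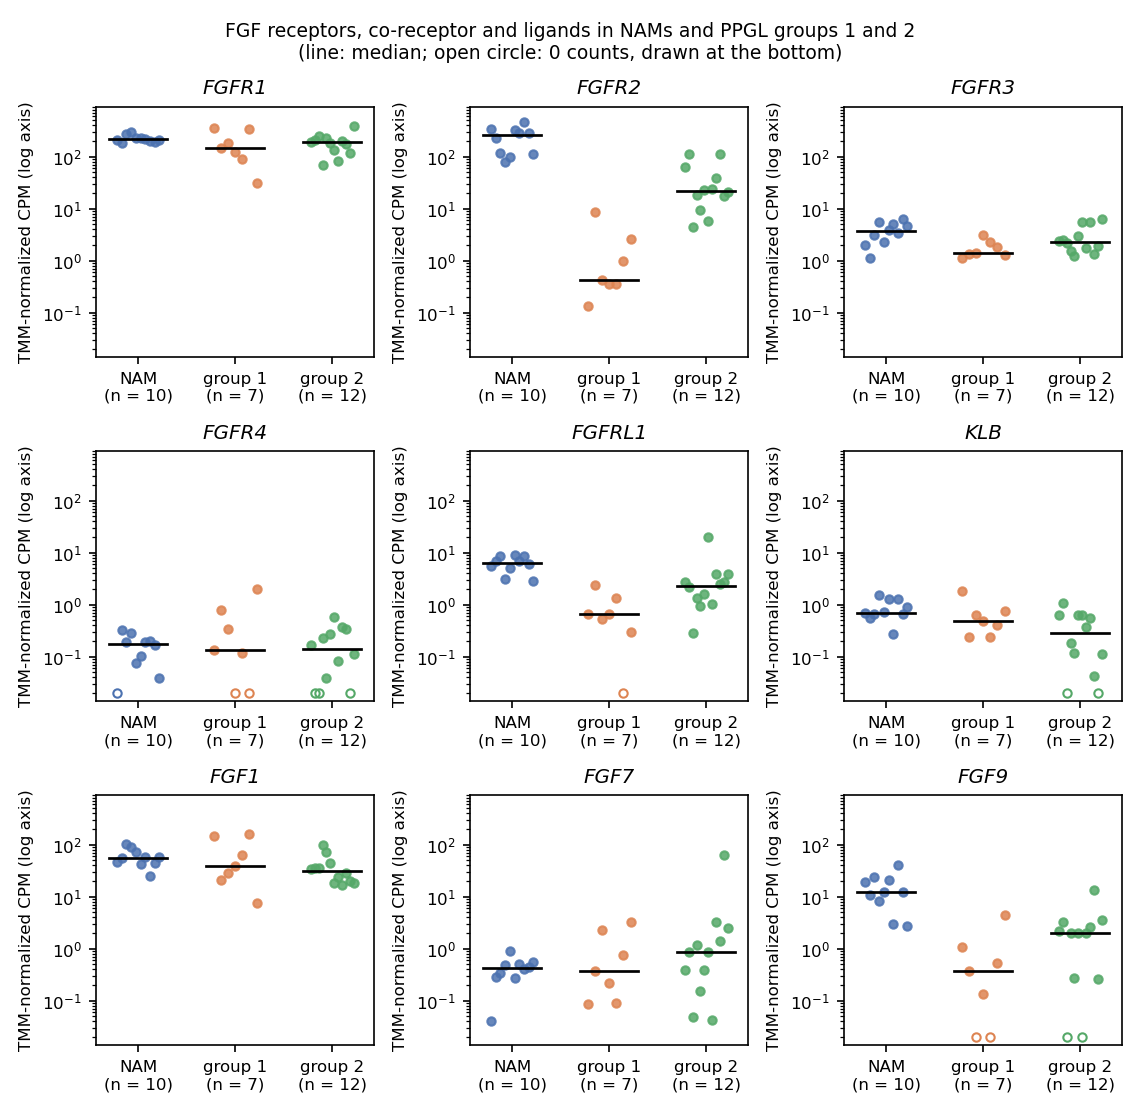
Level of each gene found in every sample, as TMM-normalized CPM on a log axis, for 10 NAMs and for PPGL groups 1 (7 tumors) and 2 (12 tumors). Each point is a sample, the line is the group's median and open circles are samples with 0 counts. FGFR2 lies between 0.131 and 8.47 CPM in PPGL group 1 and between 78.7 and 472 CPM in NAMs, while FGFR1 of PPGL group 1 lies on both sides of the NAMs.

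Per kb of exon, FGF1 and FGFR1 had the highest median levels of the members in all 3 groups. In NAMs the mean was 95.8 ± 38.3 (SD, n = 10) CPM per kb for FGF1, 75.0 ± 11.7 for FGFR1 and 44.0 ± 24.3 for FGFR2. The SD ranges of neighbours among these genes overlapped. FGF9 (9.64 ± 7.13) and FGFRL1 (3.50 ± 1.22) formed the next step, and FGFR3 (0.643 ± 0.284), FGF7 (0.528 ± 0.278), KLB (0.257 ± 0.119) and FGFR4 (0.0580 ± 0.0380) lay below them. By its median of 4.06 CPM per kb FGFR2 took the third place in PPGL group 2, with a mean of 6.94 ± 7.09 (SD, n = 12), below FGF1 at 59.9 ± 40.0. FGF7 had a higher mean there, 7.82 ± 22.8, through replicate 11, and a median of 1.09 CPM per kb. FGFR2 was eighth of 9 by its median in PPGL group 1, at 0.0802 CPM per kb, and neighbours in the order overlapped in spread there except for FGFR1 and FGF7.

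FGFR2 encodes a receptor tyrosine kinase whose isoforms bind different sets of FGFs. It lies on chromosome 28 of CanFam3.1 (31303894 to 31411621, minus strand, 5338 bases of exon), and no other gene of the table overlaps it. FGFR2 ranged from 78.7 to 472 CPM in NAMs, with a median of 259 CPM. The tumors of PPGL group 1 ranged from 0.131 to 8.47 CPM, with a median of 0.428 CPM. All 7 tumors of group 1 were thus below the lowest NAM, and the highest of them was replicate 2. Those of PPGL group 2 ranged from 4.41 to 111 CPM, with a median of 21.7 CPM. In this group 10 of 12 tumors lay below the lowest NAM, and replicates 2 and 10, at 111 CPM each, lay within the NAM range. The log2 FC came to -3.28 (SE 0.71, FDR-adjusted p = 0.000691) for PPGLs against NAMs. It was -6.94 (SE 0.86, FDR-adjusted p = 1.26e-05) for PPGL group 1 and -2.66 (SE 0.51, FDR-adjusted p = 0.000317) for PPGL group 2 against NAMs. Between the PPGL groups FGFR2 differed in the same direction, with 6 of 7 tumors of group 1 below all 12 of group 2 (log2 FC = -4.28, SE 0.91, FDR-adjusted p = 0.0166). Without PPGL group 1 replicate 2 the log2 FC was -8.15 for group 1 against NAMs and -5.52 between the PPGL groups. For PPGLs against NAMs it was -4.81 in the joint fit of 3 groups. That joint fit averaged the log2 FC of PPGL groups 1 and 2 with equal weight. With sample number as a replicate block, which left out PPGL group 2 replicates 11 and 12, the log2 FC was -3.98. The call between the PPGL groups was lost with sample number as a replicate block (FDR-adjusted p = 0.108, log2 FC = -4.40). That fit kept only numbers present in both groups, so PPGL group 2 replicates 8 to 12 were left out of it.

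FGFR2 moved with the adrenal cortex markers. All 9 cortex markers found were tested. Against NAMs, 8 were called lower in PPGLs, beside 15.2% of all genes. The counts were 9 in PPGL group 1, beside 14.7%, and 8 in PPGL group 2, beside 18%. In PPGL group 1 against group 2, 8 were called lower, beside 2.95%. The summed level of the 9 markers per sample ranged from 12630 to 61818 CPM in NAMs (median 33161 CPM). Per kb, STAR, a cholesterol carrier that some other tissues express too, was the most abundant of them in NAMs (mean 6938 CPM per kb), before CYP17A1, a steroid hydroxylase (mean 5746 CPM per kb). The summed level ranged from 201 to 31112 CPM in PPGL group 2 (median 3356 CPM), where CYP17A1 had the highest mean per kb. The group 2 replicates 10 and 2, whose FGFR2 lay within the NAM range, had the highest sums of their group, 31112 and 11714 CPM. The sum in PPGL group 1 ranged from 21.6 to 1135 CPM (median 202 CPM), with STAR as the most abundant gene per kb. NR0B1, a nuclear receptor of the cortex, had 0 counts in 6 of 7 of these tumors, and replicate 7 also had 0 counts of CYP11A1, HSD3B2, MC2R and MRAP. No cortex marker had 0 counts in any NAM or in any tumor of group 2.

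Within groups, FGFR2 was compared with an adrenal cortex score, which averages the 9 markers after log2 transformation of their TMM-normalized CPM (prior count 2). In NAMs Pearson's r was 0.94 (two-sided permutation test, p = 6e-05, adjusted p = 0.00018 over 3 groups, n = 10) and Spearman's rho was 0.92 (permutation p = 0.00046, adjusted p = 0.00138). NAMs with higher cortex scores thus had more FGFR2. In PPGL group 2 r was 0.85 (permutation p = 0.0006, adjusted p = 0.0009, n = 12) and rho was 0.85 (permutation p = 0.00093, adjusted p = 0.0014). In PPGL group 1 r was 0.04 (exact permutation p = 0.932, adjusted p = 0.932, n = 7) and rho was 0.04 (exact permutation p = 0.964, adjusted p = 0.964). Without the 2 samples farthest from the median score, r was 0.89 in NAMs (exact permutation p = 0.00439, n = 8), 0.77 in PPGL group 2 (permutation p = 0.0111, n = 10) and 0.26 in PPGL group 1 (exact permutation p = 0.658, n = 5). The relation was thus present in NAMs and in PPGL group 2 with and without those samples, and was not detected among the 7 tumors of group 1. Whether r differed between the groups was not tested.

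With the cortex score as a covariate, no call of FGFR2 was kept. Its log2 FC was then -1.04 (FDR-adjusted p = 0.222) for PPGLs against NAMs, -3.12 (FDR-adjusted p = 0.669) for PPGL group 1, -0.77 (FDR-adjusted p = 0.250) for PPGL group 2, and -0.55 (FDR-adjusted p = 0.941) for group 1 against group 2. The score ranged from 8.40 to 10.50 in NAMs and from -1.62 to 3.15 in PPGL group 1, without overlap, so score and group cannot be told apart in that comparison. Its range in PPGL group 2 was 2.42 to 9.45, where replicate 10 alone reached the NAM range. The PPGL groups overlapped only through group 1 replicate 6 (3.15) and group 2 replicate 7 (2.42). Score and group were thus hard to tell apart in the other comparisons as well. The part of cortical cells in the FGFR2 difference was not tested beyond these values.

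**Figure D2:**
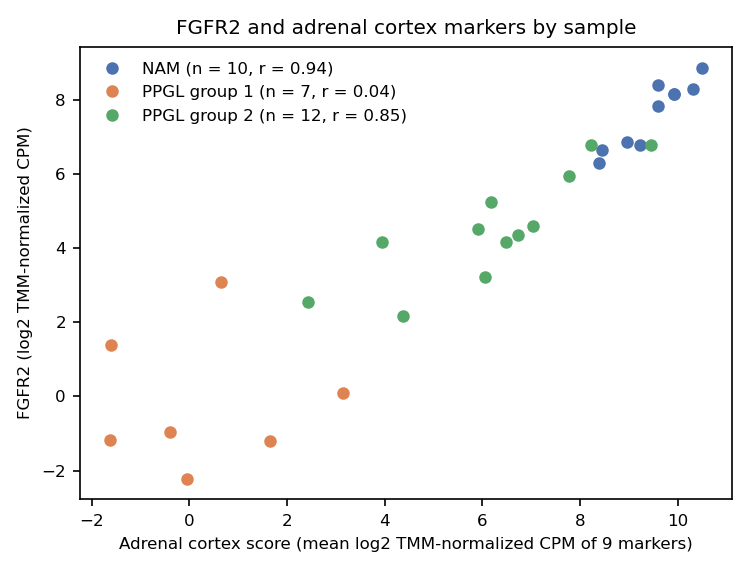
FGFR2 (log2 TMM-normalized CPM, y axis) against the adrenal cortex score (average of 9 markers in log2 TMM-normalized CPM, x axis), with 1 point per sample, colored by group. Points rise together in NAMs (r = 0.94) and in PPGL group 2 (r = 0.85), and PPGL group 1 (r = 0.04) lies at the lower left.

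FGFR1, a receptor for many FGFs in neural and mesenchymal cells, was the most abundant receptor per kb in each group. The gene lies on chromosome 16 (27031588 to 27078261, plus strand, 2967 bases of exon). FGFR1 ranged from 182 to 291 CPM in NAMs (median 214 CPM), from 30.5 to 361 CPM in PPGL group 1 (median 148 CPM) and from 68.2 to 380 CPM in PPGL group 2 (median 187 CPM). NAMs were close together, and tumors spread to both sides of them: 10 of 19 PPGLs lay below the lowest NAM and 3 above the highest. Of the 7 in group 1, 5 lay below, 2 above and 0 within the NAM range. The mean did not pass the test in any comparison, with a log2 FC of -0.27 (SE 0.26, FDR-adjusted p = 0.425) for PPGLs against NAMs. The lowest FGFR1 level was in PPGL group 1 replicate 7, which also had the lowest chromaffin marker sum.

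The share of each receptor in the summed level per kb of FGFR1 to FGFR4 was also computed, a quantity chosen after seeing the data and given without a test. In NAMs FGFR1 made up a median of 57.8% (43.2 to 86.1%) and FGFR2 41.7% (12.9 to 56.4%). The medians in PPGL group 1 were 98.5% for FGFR1 (87.8 to 99.8%) and 0.161% for FGFR2 (0.0202 to 4.08%). Those in PPGL group 2 were 90.5% for FGFR1 (73.7 to 98.6%) and 8.46% for FGFR2 (0.983 to 25.9%). FGFR1 thus held over 70% of the summed receptor level in every tumor. FGFR3 held at most 2.05% in any sample. FGFR4 held at most 0.569% in 28 samples and 6.24% in PPGL group 1 replicate 7, whose summed receptor level was the lowest, at 11.7 CPM per kb.

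FGFR3, a receptor known for restraining bone growth, was low in all groups. It lies on chromosome 3 (62303756 to 62323896, minus strand, 5798 bases of exon). FGFR3 ranged from 1.12 to 6.22 CPM in NAMs (median 3.66 CPM), from 1.14 to 3.15 CPM in PPGL group 1 (median 1.43 CPM) and from 1.21 to 6.26 CPM in PPGL group 2 (median 2.29 CPM). All 7 tumors of group 1 lay within the NAM range, in its lower part. FGFR3 was called lower in PPGL group 1 than in NAMs, with a log2 FC of -1.05 (SE 0.34, FDR-adjusted p = 0.0239). This call was lost with the Mann-Whitney U-test (FDR-adjusted p = 0.0596) and with the replicate block (log2 FC = -0.79, FDR-adjusted p = 0.179). The block fit left out NAM replicates 8 to 10. The FGFR3 call was also lost with the cortex score as a covariate (log2 FC = -0.25, FDR-adjusted p = 0.947). Against NAMs the log2 FC came to -0.57 (SE 0.30, FDR-adjusted p = 0.138) in all PPGLs and -0.34 (SE 0.33, FDR-adjusted p = 0.427) in PPGL group 2.

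FGFR4, known as the receptor through which bile acid synthesis is controlled in liver, was near the lowest detectable level. The gene lies on chromosome 4 (36244220 to 36252035, minus strand, 2707 bases of exon). FGFR4 ranged from 0 to 0.319 CPM in NAMs, from 0 to 1.98 CPM in PPGL group 1 and from 0 to 0.577 CPM in PPGL group 2, with medians of 0.177, 0.131 and 0.141 CPM. The highest value, 59 counts, was in PPGL group 1 replicate 7. Differences between groups were not tested for FGFR4.

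FGFRL1, the FGF-binding receptor without a kinase domain, was lower in PPGL group 1 than in NAMs. It lies on chromosome 3 (91499763 to 91502650, minus strand, 1795 bases of exon), within the span of SLC26A1 on the opposite strand, with no exon of both overlapping. FGFRL1 ranged from 2.87 to 8.90 CPM in NAMs (median 6.42 CPM), from 0 to 2.4 CPM in PPGL group 1 (median 0.657 CPM) and from 0.285 to 19.6 CPM in PPGL group 2 (median 2.32 CPM). All 7 tumors of group 1 lay below the lowest NAM. In group 2, 9 of 12 lay below it and replicate 7 lay above every other sample of the study. The log2 FC came to -2.89 (SE 0.56, FDR-adjusted p = 0.000773) in PPGL group 1, and the call was lost with the cortex score as a covariate (log2 FC = -3.20, FDR-adjusted p = 0.575). In all PPGLs it was -1.30 (SE 0.54, FDR-adjusted p = 0.0601) and in PPGL group 2 -0.81 (SE 0.49, FDR-adjusted p = 0.185). Without PPGL group 2 replicate 7 these became -1.96 (FDR-adjusted p = 0.000875) and -1.57 (FDR-adjusted p = 0.00119), and the Mann-Whitney U-test gave FDR-adjusted p = 0.000475 and 0.00694. With the replicate block both were called (log2 FC = -2.01, FDR-adjusted p = 0.0156, and log2 FC = -1.56, FDR-adjusted p = 0.0304), and DESeq2 called FGFRL1 in all PPGLs (FDR-adjusted p = 0.0339). In PPGL group 2 the cortex score as a covariate gave a call as well (log2 FC = -2.09, FDR-adjusted p = 0.0495), but in all PPGLs it did not (log2 FC = -1.05, FDR-adjusted p = 0.445). The joint fit of 3 groups, with equal weight for both PPGL groups, called FGFRL1 in all PPGLs (log2 FC = -1.86, FDR-adjusted p = 0.00331). In PPGL group 2 neither that fit (FDR-adjusted p = 0.241) nor DESeq2 (FDR-adjusted p = 0.143) called it. Between the PPGL groups the log2 FC came to -2.06 (SE 0.79, FDR-adjusted p = 0.150), and to -1.30 without PPGL group 2 replicate 7. Of 11 alternatives 2 called this difference, DESeq2 (FDR-adjusted p = 0.0385) and the joint fit of 3 groups (FDR-adjusted p = 0.0396). It was not called by the Mann-Whitney U-test (FDR-adjusted p = 0.192) or with the replicate block (log2 FC = -1.48, FDR-adjusted p = 0.6545). The cortex score as a covariate gave no call either (log2 FC = -3.91, FDR-adjusted p = 0.115).

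KLB, a single-pass membrane protein that serves as co-receptor for FGF19 and FGF21, was low in all samples. It lies on chromosome 3 (72998816 to 73033651, minus strand, 3328 bases of exon). KLB ranged from 0.267 to 1.56 CPM in NAMs (median 0.697 CPM), from 0.235 to 1.84 CPM in PPGL group 1 (median 0.488 CPM) and from 0 to 1.08 CPM in PPGL group 2 (median 0.279 CPM). In group 2, 6 of 12 tumors lay below the lowest NAM, and 2 of them had 0 counts. In PPGL group 2, 2 of 9 alternatives called KLB lower, the Mann-Whitney U-test (FDR-adjusted p = 0.0106) and DESeq2 (FDR-adjusted p = 0.0454). By edgeR the log2 FC was -1.22 there (SE 0.53, FDR-adjusted p = 0.0685). In all PPGLs it was -0.86 (SE 0.48, FDR-adjusted p = 0.166), where the Mann-Whitney U-test gave FDR-adjusted p = 0.018, and in PPGL group 1 -0.38 (SE 0.43, FDR-adjusted p = 0.523).

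Among the ligands, FGF9, a secreted factor with roles in glia and gonads, was lower in PPGLs. Its locus is on chromosome 25 (16632812 to 16663550, minus strand, 1595 bases of exon). FGF9 ranged from 2.72 to 40.5 CPM in NAMs (median 12.3 CPM), from 0 to 4.43 CPM in PPGL group 1 (median 0.377 CPM) and from 0 to 13.4 CPM in PPGL group 2 (median 1.99 CPM). In group 1, 6 of 7 tumors lay below the lowest NAM, all but replicate 7. In group 2, 9 of 12 lay below it, and 2 tumors in each PPGL group had 0 counts. The log2 FC came to -2.94 (SE 0.73, FDR-adjusted p = 0.00226) for PPGLs against NAMs, -4.01 (SE 0.94, FDR-adjusted p = 0.00302) for PPGL group 1 and -2.54 (SE 0.71, FDR-adjusted p = 0.00662) for PPGL group 2. Without PPGL group 1 replicate 7 the value in group 1 was -5.47, and without PPGL group 2 replicate 10 the value in group 2 was -3.21. All 3 calls were lost with the cortex score as a covariate, where the log2 FC was -1.99 in PPGLs (FDR-adjusted p = 0.13) and -0.25 in PPGL group 2 (FDR-adjusted p = 0.874). In group 1 it was larger than without the covariate, at -6.98 (FDR-adjusted p = 0.363). Between the PPGL groups the log2 FC came to -1.49 (SE 1.11, FDR-adjusted p = 0.487). It was -2.87 without PPGL group 1 replicate 7 and -0.82 without PPGL group 2 replicate 10.

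FGF7, or keratinocyte growth factor, is made by mesenchymal cells and acts on the IIIb isoform of FGFR2. Its locus is on chromosome 30 (15555266 to 15606521, plus strand, 798 bases of exon), and its span overlaps FAM227B on the opposite strand without shared exons. FGF7 ranged from 0.0405 to 0.892 CPM in NAMs (median 0.422 CPM), from 0.0876 to 3.26 CPM in PPGL group 1 (median 0.377 CPM) and from 0.0418 to 63.9 CPM in PPGL group 2 (median 0.866 CPM). The highest value, 1204 counts, came from PPGL group 2 replicate 11, and the next highest tumor had 3.26 CPM. With it, 7 of 19 PPGLs lay above every NAM. The log2 FC came to 3.33 (SE 1.07, FDR-adjusted p = 0.0147) for PPGLs against NAMs and 3.86 (SE 1.08, FDR-adjusted p = 0.00667) for PPGL group 2. Without replicate 11 these became 1.24 (FDR-adjusted p = 0.107) and 1.23 (FDR-adjusted p = 0.091), and the Mann-Whitney U-test on all samples gave FDR-adjusted p = 0.495 and 0.338. In PPGL group 1 the log2 FC came to 1.25 (SE 0.65, FDR-adjusted p = 0.141), and 0.56 without its replicate 7. Between the PPGL groups it was -2.66 (SE 1.34, FDR-adjusted p = 0.283), which became 0.00055 without PPGL group 2 replicate 11.

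PPGL group 2 replicate 11 also stood apart in markers of other cell types. Its 9 fibroblast markers summed to 27743 CPM, where the other 18 PPGLs had 542 to 6900 CPM and the NAMs 668 to 1277 CPM. Its 9 leukocyte markers found summed to 886 CPM (78.0 to 338 CPM in the other PPGLs), and its 8 smooth muscle and pericyte markers to 5127 CPM (250 to 4000 CPM). Over groups, 6 of 9 fibroblast markers were called higher in PPGLs than in NAMs (22.3% of all genes), 4 higher and 1 lower in PPGL group 1 (21.1% higher and 14.7% lower) and 8 higher in PPGL group 2 (22.9%). The Mann-Whitney U-test called fewer higher, 3 in PPGLs, 0 in PPGL group 1 and 5 in PPGL group 2, and it called 1 lower in each. The median sum was 834 CPM in NAMs, 2329 CPM in PPGL group 1 and 3389 CPM in PPGL group 2. THY1, which neurons also express, was the most abundant of these genes per kb in each group, and none of the list was at 0 in all samples of a group. Their part in the FGF7 values was not tested.

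FGF1, a ligand for all signaling FGF receptors, was present in every sample, with a lower median in both PPGL groups than in NAMs. Its locus is on chromosome 2 (37470985 to 37554619, minus strand, 621 bases of exon), and its span overlaps 2 unnamed genes, of which 1 lies on the same strand, without shared exons. FGF1 ranged from 24.6 to 105 CPM in NAMs (median 55.7 CPM), from 7.62 to 158 CPM in PPGL group 1 (median 38.0 CPM) and from 16.6 to 99.6 CPM in PPGL group 2 (median 31.5 CPM). Group 1 spread to both sides of NAMs, with 2 tumors below the lowest and 2 above the highest NAM, and 5 of 12 tumors of group 2 lay below the lowest. The log2 FC came to -0.32 (SE 0.37, FDR-adjusted p = 0.526) for all PPGLs, 0.15 (SE 0.46, FDR-adjusted p = 0.829) for PPGL group 1 and -0.67 (SE 0.30, FDR-adjusted p = 0.0739) for PPGL group 2. In group 2 the Mann-Whitney U-test gave FDR-adjusted p = 0.0376, and edgeR with the replicate block called FGF1 lower (log2 FC = -0.64, FDR-adjusted p = 0.0278).

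**Figure D3:**
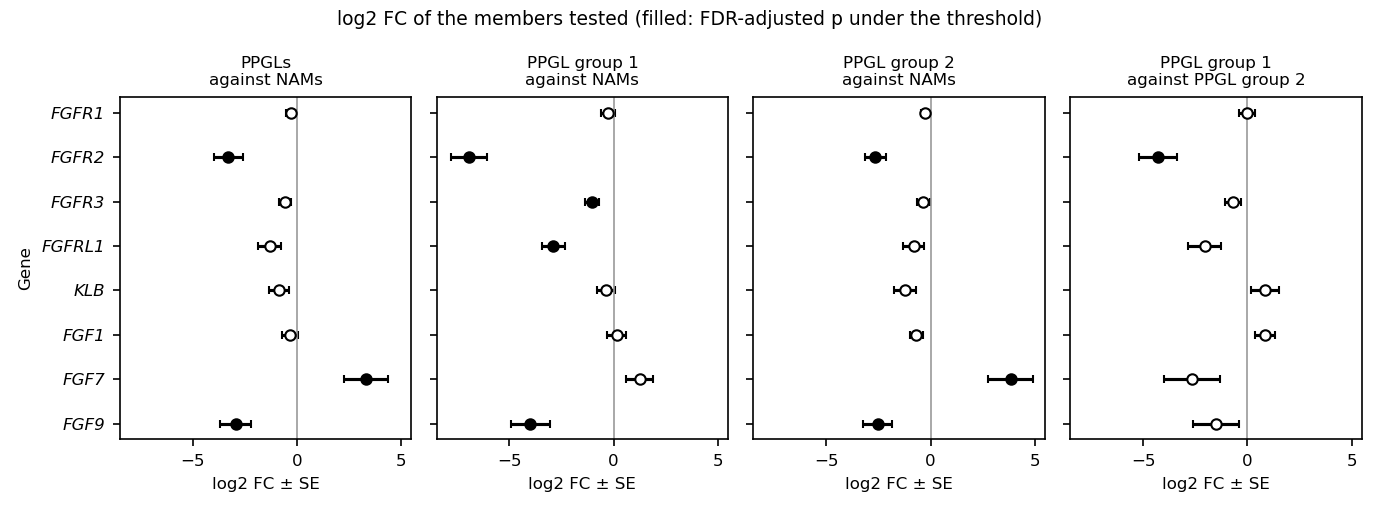
log2 FC with its SE (x axis) of the 8 members tested (y axis) in the 4 comparisons, by edgeR. Filled points passed the FDR threshold of their comparison. FGFR2 is lower in all 4, from -2.66 in PPGL group 2 to -6.94 in PPGL group 1 against NAMs, and FGF7 is higher in PPGL group 2 through replicate 11.

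The genes most alike to each member were sought among 12776 other named genes by Pearson's r of the log2 TMM-normalized CPM. FGFR2 was most like MLXIPL (r = 0.97), LMAN1L (r = 0.95) and ENPP2 (r = 0.95) over 29 samples, and most like MLXIPL (r = 0.94), CCDC3 (r = 0.94) and LMAN1L (r = 0.91) over the 19 PPGLs. FGF9 was most like AIF1L, LARGE2 and ACSF2 over 29 samples (r = 0.90 to 0.88). FGFRL1 was most like WLS, CD2BP2 and ACP6 (r = 0.87 to 0.85). FGF7 was most like SYK, CAPG and FCGR1A over 29 samples (r = 0.88 to 0.82) and CTSB, SYK and HVCN1 over the PPGLs (r = 0.92 to 0.90), a likeness that includes replicate 11 of group 2. SYK and FCGR1A are known as leukocyte genes. The highest r over 29 samples was 0.79 for FGFR1 (ALCAM), 0.75 for FGFR3 (CSMD3), 0.67 for KLB (EGFL6) and 0.82 for FGF1 (MCF2). These values are descriptions over samples that include the group differences.

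Of 15 further genes, the other FGF ligands and the co-receptor KL, 6 passed the filter in PPGLs against NAMs. Of these 2 were called higher, beside 22.3% of all genes, and 1 lower, beside 15.2%. FGF18 was 0.169 ± 0.0987 CPM (SD, n = 10) in NAMs, 1.39 ± 1.93 in PPGL group 1 (n = 7) and 1.20 ± 0.903 in PPGL group 2 (n = 12), with a log2 FC of 2.88 (SE 0.59, FDR-adjusted p = 0.000375) in PPGLs. FGF20 was also higher (log2 FC = 2.09, SE 0.63, FDR-adjusted p = 0.0103), and FGF16 was lower (log2 FC = -2.35, SE 0.47, FDR-adjusted p = 0.000337). All 3 were low, with means under 3 CPM in every group. The median log2 FC of the 6 was 0.49, beside 0.13 over all genes tested. Between the PPGL groups 0 of 5 were called in either direction by edgeR, beside 3.97% of all genes higher and 2.95% lower. At an unadjusted p below 0.05, 1 was lower, DESeq2 called 1 lower and the Mann-Whitney U-test called 0.

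The intracellular FGF homologs bind sodium channels and do not act through FGF receptors. All 4 were tested, and in PPGLs FGF13 was called higher (log2 FC = 1.18, FDR-adjusted p = 0.0452), a call that the Mann-Whitney U-test did not make, and FGF11 lower. FGF13 was 10.1 ± 4.29 CPM (SD, n = 10) in NAMs, 43.7 ± 33.5 CPM in PPGL group 1 (n = 7) and 10.5 ± 5.48 CPM in PPGL group 2 (n = 12). It was higher in PPGL group 1 than in NAMs, with a log2 FC of 2.13 (SE 0.40, FDR-adjusted p = 0.000607). In PPGL group 2 it did not differ from NAMs by the test (log2 FC = 0.07, FDR-adjusted p = 0.878). Against PPGL group 2 it was higher in group 1 (log2 FC = 2.05, SE 0.40, FDR-adjusted p = 0.0112). FGF11 had a log2 FC of -2.47 (SE 0.48, FDR-adjusted p = 0.000209) in PPGLs, -3.79 (SE 0.55, FDR-adjusted p = 5.68e-05) in group 1 and -2.04 (SE 0.44, FDR-adjusted p = 0.000952) in group 2. FGF12 was called lower in PPGL group 1 (log2 FC = -2.59, FDR-adjusted p = 0.0179) and FGF14 higher in PPGL group 2 (log2 FC = 1.08, FDR-adjusted p = 0.00255).

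Among FGF carriers and heparan sulfate partners, genes were called in both directions. Of 21 tested of 25 listed, 5 were called higher in PPGLs, beside 22.3% of all genes, 7 were called lower, beside 15.2%, and 9 were not called, with a median log2 FC of 0.15. SULF2, an extracellular enzyme that removes sulfate groups from heparan sulfate, was 29.1 ± 10.2 CPM (SD, n = 10) in NAMs, 678 ± 507 CPM in PPGL group 1 (n = 7) and 253 ± 141 CPM in PPGL group 2 (n = 12). Every tumor lay above the highest NAM, at 46.2 CPM, and the log2 FC came to 3.82 (SE 0.49, FDR-adjusted p = 1.47e-06). Its relative SULF1 (log2 FC = 2.21, SE 0.60, FDR-adjusted p = 0.00449), the sulfotransferase HS6ST1 (log2 FC = 0.95, SE 0.27, FDR-adjusted p = 0.00609) and FLRT3, a membrane protein that binds FGF receptors (log2 FC = 2.62, SE 0.53, FDR-adjusted p = 0.000348), were higher too. SDC2, a heparan sulfate proteoglycan, was 149 ± 38.2 CPM in NAMs, 7.61 ± 3.87 CPM in PPGL group 1 and 28.3 ± 22.6 CPM in PPGL group 2, with no tumor reaching the lowest NAM at 91.5 CPM (log2 FC = -2.85, SE 0.40, FDR-adjusted p = 5.43e-06). EXT1, which elongates heparan sulfate chains (log2 FC = -1.59, SE 0.21, FDR-adjusted p = 2.85e-06), HS6ST2 (log2 FC = -2.03, SE 0.33, FDR-adjusted p = 3.86e-05) and GPC6 (log2 FC = -1.76, SE 0.42, FDR-adjusted p = 0.0017) were lower. Against NAMs, 5 of 20 were higher and 5 lower in PPGL group 1, beside 21.1% and 14.7% of all genes, and 6 of 20 were higher and 6 lower in PPGL group 2, beside 22.9% and 18%. Between the PPGL groups SULF2 was higher (log2 FC = 1.44, FDR-adjusted p = 0.0894) and SDC2 lower (log2 FC = -1.88, FDR-adjusted p = 0.0475) in group 1, the 2 genes called of 21. The Mann-Whitney U-test called neither. Between these groups 3.97% of all genes were called higher and 2.95% lower by edgeR.

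All 21 genes of the receptor's signal relay were tested in PPGLs against NAMs, and 3 were called higher, beside 22.3% of all genes, and 3 lower, beside 15.2%, with a median log2 FC of 0.10. The adaptors FRS3 (log2 FC = 1.20, SE 0.22, FDR-adjusted p = 0.000129), GRB2 (log2 FC = 0.45, SE 0.11, FDR-adjusted p = 0.00151) and GAB1 (log2 FC = 0.76, SE 0.27, FDR-adjusted p = 0.0267) were higher. PIK3CA, a kinase subunit, was lower (log2 FC = -1.44, SE 0.23, FDR-adjusted p = 3.27e-05). In all, 15 of 21 did not pass the test. In PPGL group 1 the counts were 3 higher and 2 lower, beside 21.1% and 14.7% of all genes, and in PPGL group 2 they were 4 higher and 5 lower, beside 22.9% and 18%. In group 1 against group 2 SHC1 alone was lower, 1 of 21 beside 2.95% of all genes. By edgeR 0 of 21 were called higher, beside 3.97%, where 4 were higher at an unadjusted p below 0.05. DESeq2 called 2 higher and the Mann-Whitney U-test called 0.

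Of the 17 feedback inhibitors and target genes of FGF signaling tested, 4 were called lower in PPGLs, beside 15.2% of all genes, and 1 was called higher, beside 22.3%, with a median log2 FC of -0.16. ETV4 and ETV1, transcription factors induced by FGF and other growth factors, had a log2 FC of -1.78 (SE 0.43, FDR-adjusted p = 0.00187) and -1.37 (SE 0.37, FDR-adjusted p = 0.00417). PHLDA1, induced by growth factors, was 40.6 ± 27.2 CPM (SD, n = 10) in NAMs, 1.39 ± 0.691 CPM in PPGL group 1 (n = 7) and 7.92 ± 6.78 CPM in PPGL group 2 (n = 12), with a log2 FC of -2.88 (SE 0.50, FDR-adjusted p = 6.91e-05). It was also lower in group 1 than in group 2 (log2 FC = -2.50, SE 0.58, FDR-adjusted p = 0.0253). SPRY3, of the Sprouty inhibitors, was lower (log2 FC = -1.0, SE 0.29, FDR-adjusted p = 0.00712), and CCND1, a cyclin with many inputs, was higher (log2 FC = 0.81, SE 0.28, FDR-adjusted p = 0.02). Against NAMs the counts were 2 higher and 5 lower in PPGL group 1, beside 21.1% and 14.7% of all genes. Against NAMs, PPGL group 2 had 5 lower, beside 18% of all genes, and 0 higher by edgeR, beside 22.9%. Of the 17 genes, 1 was higher at an unadjusted p below 0.05 and 0 were called higher by DESeq2 or the Mann-Whitney U-test. In group 1 against group 2 PHLDA1, DUSP4, DUSP5 and FOSL1 were lower, 4 of 17 beside 2.95% of all genes. By edgeR 0 were called higher, beside 3.97%, with 1 higher at an unadjusted p below 0.05 and 0 called by DESeq2 or the Mann-Whitney U-test. Most of these genes respond to other pathways as well, so their levels do not measure FGF receptor activity alone.

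Other marker lists gave the following counts in PPGLs against NAMs, where 22.3% of all genes were called higher and 15.2% lower. Of 13 chromaffin cell markers 3 were higher and 1, PNMT, the enzyme that makes epinephrine, was lower. Of 9 endothelial markers 5 were lower, and of 8 smooth muscle and pericyte markers 3 were higher by edgeR. By DESeq2 and by the Mann-Whitney U-test 1 smooth muscle and pericyte marker was higher. Of 7 Schwann and sustentacular cell markers tested 0 were called by edgeR, while 2 were lower at an unadjusted p below 0.05, DESeq2 called 2 lower and the Mann-Whitney U-test 4. In PPGL group 2 alone edgeR called 2 of them lower. Of 8 leukocyte markers tested 2 were higher and 1 lower. Of the 3 erythroid markers tested all were higher, with the highest sum, 65.0 CPM, in PPGL group 2 replicate 11. Of 2 liver markers tested 1 was higher and 1 lower, and of 2 kidney markers 1 was higher and 1 lower, with UMOD at 0 in every sample. The part of these cell types in the members' levels was not tested.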

How the data were processed

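Gene expression was measured by RNA sequencing of stranded mRNA libraries with single-end reads. STAR was used by the authors for alignment to CanFam3.1, and they deposited raw exon read counts per Ensembl gene. The submitters' processing notes also name FastQC, Picard and HTSeq. The counter, its strand setting and its handling of reads shared by several genes are not settled in the sources used here, so overlapping genes and close paralogs are uncertain. Counts were filtered by edgeR's filterByExpr (minimum count 10, minimum total 15) on all 30951 genes and normalized by TMM. The quasi-likelihood F test of edgeR gave the log2 FC (edgeR's default prior count), and the SE was taken as the log2 FC over the square root of F. Benjamini-Hochberg correction covered all genes tested. The FDR threshold was 0.05 against NAMs and 0.1 between PPGL groups. The members, gene lists and the rule for named genes (all members, and from each pathway list genes among the 4 per direction with the smallest FDR-adjusted p in PPGLs against NAMs) were chosen with earlier results of these data known. Of the listed genes FGF2, FGFBP2, HS2ST1, HS3ST1, SPRED3, CYP11B2, CHGA, CD14 and ALB were not found by name. Alternatives were other scalings and filters, DESeq2's Wald test, an exact Mann-Whitney U-test of CPM after TMM, a covariate for the cortex score, a replicate block, a joint fit of all 3 groups, and the omission of each sample. The block fit held only samples whose number occurred in both groups compared. In the joint fit, PPGLs stood for PPGL groups 1 and 2 at equal weight. Chosen after seeing the data were the receptor shares and the fit without PPGL group 1 replicate 7 and PPGL group 2 replicate 11. The steps were tested on simulated data. R 4.3.3, edgeR 4.0.16, DESeq2 1.42.0, Python 3.11.15, scipy 1.17.1 and matplotlib 3.10.9 were used. Tumors that the authors had set aside as outliers were not analysed here.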

Additional observations from a re-analysis of the deposited data

Results flagged for a closer look

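FGF7 in NAM replicate 1 lay far below the other NAMs on the log2 scale, at 0.0405 CPM, which is 1 count. This is under the floor of 3 counts, so its distance on the log2 scale is uncertain through counting error. The gap to the nearest NAM was 0.517 of the group's range, above the critical value of 0.466 for 10 samples. Of the 18 sets tested (9 genes in NAMs and in PPGL group 1), this was the 1 that stood apart, and chance gives about 1 in 20. PPGL group 2 has more than 10 samples and was not tested in this way, so FGF7 in its replicate 11 is given by its values alone.

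FGFR2 differed between PPGL group 1 and PPGL group 2, with a log2 FC of -4.28 (edgeR, FDR-adjusted p = 0.0166), while both groups were lower than NAMs. The groups were drawn from these same samples, and the adrenal cortex markers differed between them in the same direction.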

How the results depend on the processing

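FGFR2 and FGF9 calls against NAMs held under other scalings, filters and tests, with every sample left out in turn and with the replicate block. They were lost with the adrenal cortex score as a covariate. The range of this score in PPGL group 1 does not overlap with that of NAMs, and PPGL group 2 reaches it through replicate 10 alone. With the covariate FGFR2 was nearer to 0 in all 3 comparisons (-1.04 in PPGLs, -3.12 in group 1 and -0.77 in group 2). FGF9 was nearer to 0 in PPGLs (-1.99) and group 2 (-0.25) and farther in group 1 (-6.98).

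With that covariate, 2450 genes were called in either direction in PPGLs against NAMs and 85 in PPGL group 1. The numbers were 1298 in PPGL group 2 and 116 in group 1 against group 2. In PPGLs 0 members were called higher, beside 9.10% of all genes, and 0 lower, beside 7.49%. In PPGL group 1, 0 members were lower, beside 0.226%. PPGL group 2 had 0 members higher, beside 5.33%, and 1 lower (FGFRL1), beside 3.67%. In group 1 against group 2, 0 members were lower, beside 0.689%. The log2 FC changed sign for FGFR1 (1.82) and FGF7 (-2.47) in PPGL group 1 against NAMs, and for FGFR1 (0.78) and FGF9 (3.32) in group 1 against group 2, none of them called.

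Same-numbered samples of different groups come from different animals, and their deviations correlated by -0.232 to 0.251, so the numbers do not pair them. The fit with the number as a replicate block kept only numbers present in both groups. Against NAMs it left out PPGL group 2 replicates 11 and 12, and for PPGL group 1 it left out NAM replicates 8 to 10. It left out PPGL group 2 replicates 8 to 12 between the PPGL groups. Replicate 11, on which the FGF7 call rested, was thus absent. In this fit 0 members were called higher in PPGLs and in PPGL group 2 against NAMs. It called 3 lower in PPGLs (FGFR2, FGF9 and FGFRL1), beside 16.2% of all genes. In PPGL group 2 it called 4 lower (FGF1 in addition), beside 19.5%, and in PPGL group 1 it called 2148 genes. In group 1 against group 2 it called 30 genes in either direction, and 0 members lower beside 0.148% of all genes. FGF1 changed sign under the block in PPGL group 1 against NAMs (-0.64) and in group 1 against group 2 (-0.0574). The cause was not tested.

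The Mann-Whitney U-test called 0 members higher and 4 lower in PPGLs (FGFR2, FGF9, FGFRL1 and KLB), beside 20.5% of all genes lower by that test. In PPGL group 2 it called 0 higher and 5 lower, FGF1 in addition, beside 19.9% of all genes, and it called 398 genes in group 1 against group 2. The filter of at least 1 CPM and DESeq2's Wald test each called 0 members higher in PPGLs and in PPGL group 2. The filter removed FGF7. DESeq2 ran with its default replacement of outlier counts, and its log2 FC of FGF7 was 1.19 in PPGLs and 1.17 in PPGL group 2. In group 1 against group 2 DESeq2 called 1793 genes in either direction, and 2 members lower beside 5.98% of all genes. The fit of all 3 groups called 2567 genes in either direction, and 2 members lower beside 7.64%. FGF7 changed sign there with DESeq2 (0.0297), and FGFR1 with library size (0.0029). Without both PPGL group 1 replicate 7 and PPGL group 2 replicate 11, chosen after seeing the data, 0 members were higher in PPGLs, 504 genes were called in group 1 against group 2, and FGFR1 there was 0.13.

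With each sample left out in turn, members called higher ranged from 0 to 1 in PPGLs and in PPGL group 2, the lowest without replicate 11 of group 2. Genes called in group 1 against group 2 ranged from 525 without PPGL group 1 replicate 7, and 674 without PPGL group 2 replicate 4, to 1218. FGF1 in PPGL group 1 against NAMs ranged from -0.24 to 0.35. In group 1 against group 2 FGFR1 ranged from -0.28 to 0.18 and FGF7 from -3.27 to 0.00055. Depth limits FGFR4, KLB, FGF7 and FGF9, which have 3 counts or fewer in 5 or more samples each, and FGFR2 in PPGL group 1, where 5 of 7 tumors have 3 to 17 counts. Tissue cannot be told apart from origin and preservation of the samples, and the PPGL groups were drawn from these same data. Gene counts do not separate receptor isoforms or cell types.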
